A study of Mus musculus with 12 samples.

Results

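The 31 genes described here are markers of astrocytes and radial glia, the glial cells and glial progenitors of the cortex. They were chosen by name, with earlier results of these data known. All 31 were present among the 23955 genes of each deposited table. They were measured in cultures of primary cortical neurons from C57BL/6J mice, dissociated at E16.5 and harvested 7 days after dissection. All cultures received a lentivirus made from the pGreenPuro backbone on the day after seeding, so every group, the controls included, carried a short hairpin RNA (shRNA). The 5 groups, each with 2 samples that the labels call biological replicates, were the control hairpins shControl1 and shControl2, shAdar1 (directed against Adar, which encodes the RNA editing enzyme ADAR1), shAdar2 (against Adarb1, which encodes ADAR2) and shZfr (against Zfr, which encodes a zinc finger RNA-binding protein). The design text sets shAdar1 and shAdar2 against shControl1, and shZfr against shControl2. Each target was knocked down with a single labelled hairpin, and the protocols in the labels name no sorting of cells and no removal of glia. A culture labelled as neuronal could therefore hold glia and progenitors. In such bulk RNA, fewer cells of a type and less RNA per cell cannot be told apart.

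Radial glia are the neural stem cells of the embryonic cortex. They divide next to the ventricle, give rise to neurons, and late in embryonic life turn to making astrocytes. Notch signalling, which acts through the DNA-binding protein RBPJ and the repressors HES1 and HES5, keeps radial glia as progenitors. BMP signals, which act through SMAD and ID proteins, and cytokines of the LIF family, which act through JAK kinases and STAT3, favour the astrocyte fate. Mature astrocytes take up glutamate and potassium, move water, couple to each other through gap junctions, secrete lipoproteins and matrix proteins, and build filaments of GFAP and vimentin.

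Total expected counts per library lay between 1.58e+07 and 2.97e+07. Per sample, shAdar2 replicate 1, summed over its 3 technical libraries, had the highest total, 8.27e+07, and shAdar2 replicate 2 the lowest, 1.58e+07. Adar fell in shAdar1 by 1.69 on the log2 scale, Adarb1 fell in shAdar2 by 1.26 and Zfr fell in shZfr by 1.41, each against its assigned control and with groups that did not overlap. The targets also differed between the controls: in shControl2 relative to shControl1, Zfr was higher by 0.72, Adar fell by 0.42 and Adarb1 fell by 0.33 on the log2 scale. Against shControl1, Zfr in shZfr fell by 0.69. Zfr measured 179 and 197 CPM (counts relative to the library's total, scaled with TMM factors) in shAdar2 and 173 and 172.5 CPM in shZfr, and in shAdar2 it fell by 0.57 against shControl1 and by 1.29 against shControl2. Adarb1 was low in shZfr, at 49.2 and 45.5 CPM against 99.4 and 91.96 in shControl2. The 2 shZfr libraries differed by a chi-square of 2.28 per gene, above the value of 1 that sampling alone gives. The replicate pairs of shControl1, shAdar1 and shControl2 had 26.2, 32.7 and 39.6. Pairs of shAdar2 libraries, technical ones included, had 21.2 to 60.5. Whether the 2 shZfr samples are separate cultures cannot be told from these values. All 10 samples share an estimate of the spread in the fit. The p-values and SEs of every comparison, not only those of shZfr, may therefore rest on a spread smaller than that between cultures. The 3 technical libraries of shAdar2 replicate 1, which the labels describe as made from a single culture, were summed. The second of them stood apart: its members had a median log2 ratio of 0.74 over the mean of the other 2, with 29 of 30 higher, while the median of all tested genes was 0.01. Whether it shares their source was not tested. The p-values measure the spread between the samples of these cultures, with 2 per group.

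The members were expressed over a wide range. On the TPM scale, which corrects for gene length, the order in shControl1 began with Fabp7, a fatty acid-binding protein of radial glia, at 1647 ± 388 TPM (SD, n = 2). Apoe, the main lipoprotein of astrocytes, followed at 488 ± 170 TPM and Cst3, a secreted protease inhibitor, at 447 ± 73.9 TPM. These 2 do not differ beyond their spread. Vim stood at 319 ± 51.8 TPM, Ptprz1 at 303 ± 21.1 TPM and Slc1a3 at 252 ± 71.0 TPM, again within each other's spread. In shControl2, Fabp7 reached 5029.8 ± 124 TPM and Apoe 1019.8 ± 239 TPM. At the other end, Gjb6, a connexin of mature astrocytes, had at most 3 expected counts in any sample, at or under the floor of 3 counts, and gets no fold change. The other 30 members passed the filter on low counts and were tested.

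**Figure D1:**
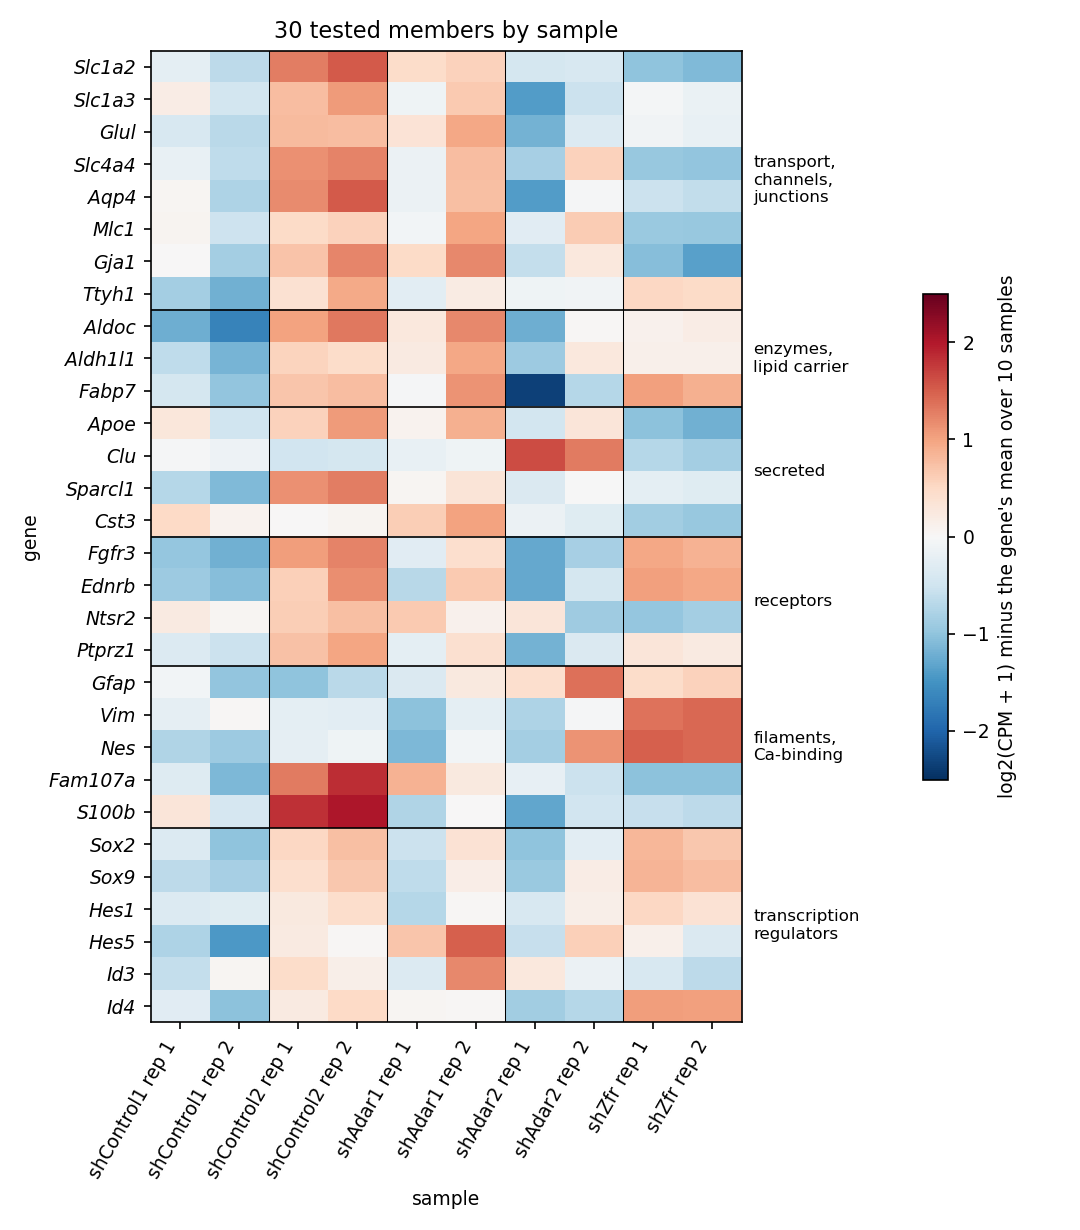
Level of each of the 30 tested members in each of the 10 samples, as log2 of CPM plus 1 centred on the member's mean over the samples; rows are members in their role groups and columns are samples by group and replicate. Most rows are high in the shControl2 columns and low in the shControl1 columns, while Clu, Gfap, Vim and Nes follow other patterns.

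Against shControl1, the other control hairpin gave the widest difference among the members. In shControl2, 20 of 30 tested members were higher and 1 was lower (edgeR quasi-likelihood test, Benjamini-Hochberg adjusted p under 0.05). Over all 14785 tested genes, 19.9% were higher and 23.2% lower in that comparison. Because the list was chosen with earlier results of these data known, such counts and shares are descriptions, and the list itself was not tested. The median log2 fold change was 1.31 over the members and -0.05 over all tested genes. Glutamate transporters, the growth factor receptor Fgfr3 and the metabolic enzymes all lay on the higher side, and the lower member was Clu. In the same comparison 6 of 9 oligodendrocyte markers and 7 of 13 proliferation markers were higher. Leaving out shControl1 replicate 2 reduced the higher members to 10, and leaving out shControl2 replicate 2 reduced them to 11, with 0 lower in each case. Aldoc, Ednrb, Fam107a, Fgfr3, Glul, Id4, Ptprz1, Slc1a2, Sparcl1 and Ttyh1 were called without each of the 4 samples in turn.

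In shAdar1, 10 of 30 members were higher than in shControl1 and 0 were lower, where 9.33% of all tested genes were higher and 6.90% lower. At an unadjusted p under 0.05 the count of lower members was also 0, and DESeq2 called 11 higher and 0 lower. The median over the members was 0.73, against 0.02 over all tested genes. Those higher were the glutamate transporter Slc1a2, glutamine synthetase Glul, the connexin Gja1, Ttyh1, the enzymes Aldoc and Aldh1l1, the matrix protein Sparcl1, the receptor Fgfr3, Fam107a and the Notch target Hes5. Beside them, 4 of 13 proliferation markers were higher. Leaving out shControl1 replicate 2 left 2 of them, Slc1a2 and Sparcl1, which were called without each sample in turn. Without shAdar1 replicate 2 the count was 5.

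In shAdar2, 5 members were higher than in shControl1 and 1 was lower, against 23.2% of all tested genes in each direction. Thus 6 of 30 members were called, a smaller share than over all genes, and the members' median was 0.22, against 0.04. Higher were Clu, Gfap, Ttyh1, Sparcl1 and Hes5, and the lower member was Cst3. Clu was called without each sample in turn. The number higher was 1 without shControl1 replicate 2 and 10 without shAdar2 replicate 1, and the number lower was 7 without shAdar2 replicate 2. With the second technical library left out of the sum, 4 were higher and 1 lower, the median was 0.039, and Hes5 was no longer called (log2 fold change 1.27).

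In shZfr, 4 members were higher than in shControl2 and 13 were lower, where 16.7% of all tested genes were higher and 14.1% lower. The median was -0.76, against 0.05 over all tested genes. The lower members included 7 of the 8 tested glutamate, ion, water and gap junction genes and 3 of the 4 secreted proteins. The former group holds transporters, channels and connexins, and also the enzyme glutamine synthetase, Glul. They were Slc1a2, Slc1a3, Glul, Slc4a4, Aqp4, Mlc1, Gja1, Apoe, Sparcl1, Cst3, S100b, Fam107a and Ntsr2. The higher members were the intermediate filament genes Vim, Nes and Gfap, and Id4. The count of higher members was 1, Vim, without any one of the 4 samples, and the count of lower members was 7 to 10. Apoe, Cst3, Fam107a, Gja1, Slc1a2, Slc4a4, Sparcl1 and Vim were called without each sample in turn, and the same 8 were called when the 2 shZfr samples were summed to 1.

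**Figure D2:**
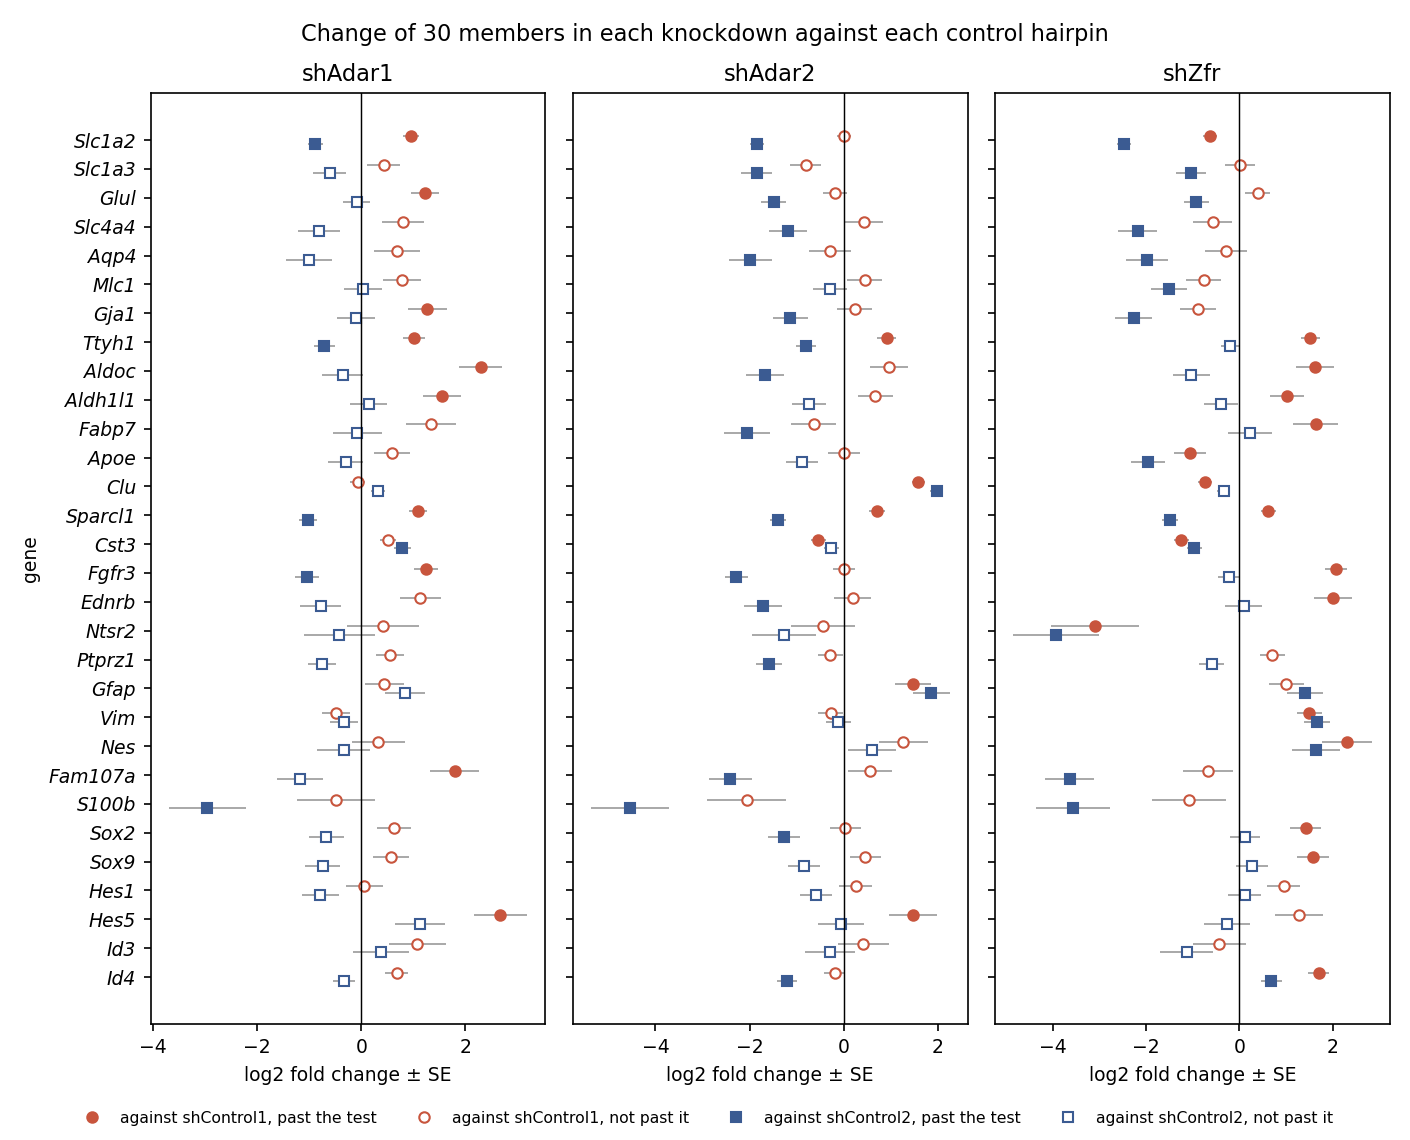
Log2 fold change (x axis) of the 30 tested members (y axis) in shAdar1, shAdar2 and shZfr, against shControl1 (circles) and shControl2 (squares), with bars of 1 standard error; filled symbols passed an adjusted p under 0.05. Most squares lie left of their circles, 13 filled squares lie below 0 in shZfr, and Clu is filled and above 0 against both controls in shAdar2.

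Because the control hairpins differed in these genes, each knockdown was also set against the other control. These fits share samples with those above, so the values stand side by side. Against shControl2, shAdar1 had 1 member higher and 5 lower, where 19.3% of all tested genes were higher and 13.9% lower, with a median of -0.39. shAdar2 had 2 higher and 17 lower, where the shares over all tested genes were 32.2% and 27.3%, with a median of -1.19. Against shControl1, shZfr had 12 higher and 5 lower, where the shares were 22.8% and 23.4%, with a median of 0.66. The median over the members thus changed sign with the control in all 3 knockdowns.

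For shAdar1, 0 members were called in the same direction against both controls, where 1.85% of all tested genes were higher and 1.99% lower against both. Fgfr3, Slc1a2, Sparcl1 and Ttyh1 were called in opposite directions, as were 2.73% of all tested genes. The mean of shAdar1 lay between the means of the controls for 22 of 30 members. The share of all tested genes with such a mean was not computed. For shAdar2, Clu and Gfap were higher against both controls and 0 members were lower against both, where 15.2% of all tested genes were higher and 15.9% lower. Sparcl1 and Ttyh1 were called in opposite directions there, as were 2.64% of all tested genes. For shZfr, Id4, Nes and Vim were higher against both controls and Apoe, Cst3, Ntsr2 and Slc1a2 were lower against both, where the shares over all tested genes were 7.95% and 7.85%. Sparcl1 went in opposite directions, as did 2.75% of all tested genes.

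**Figure D3:**
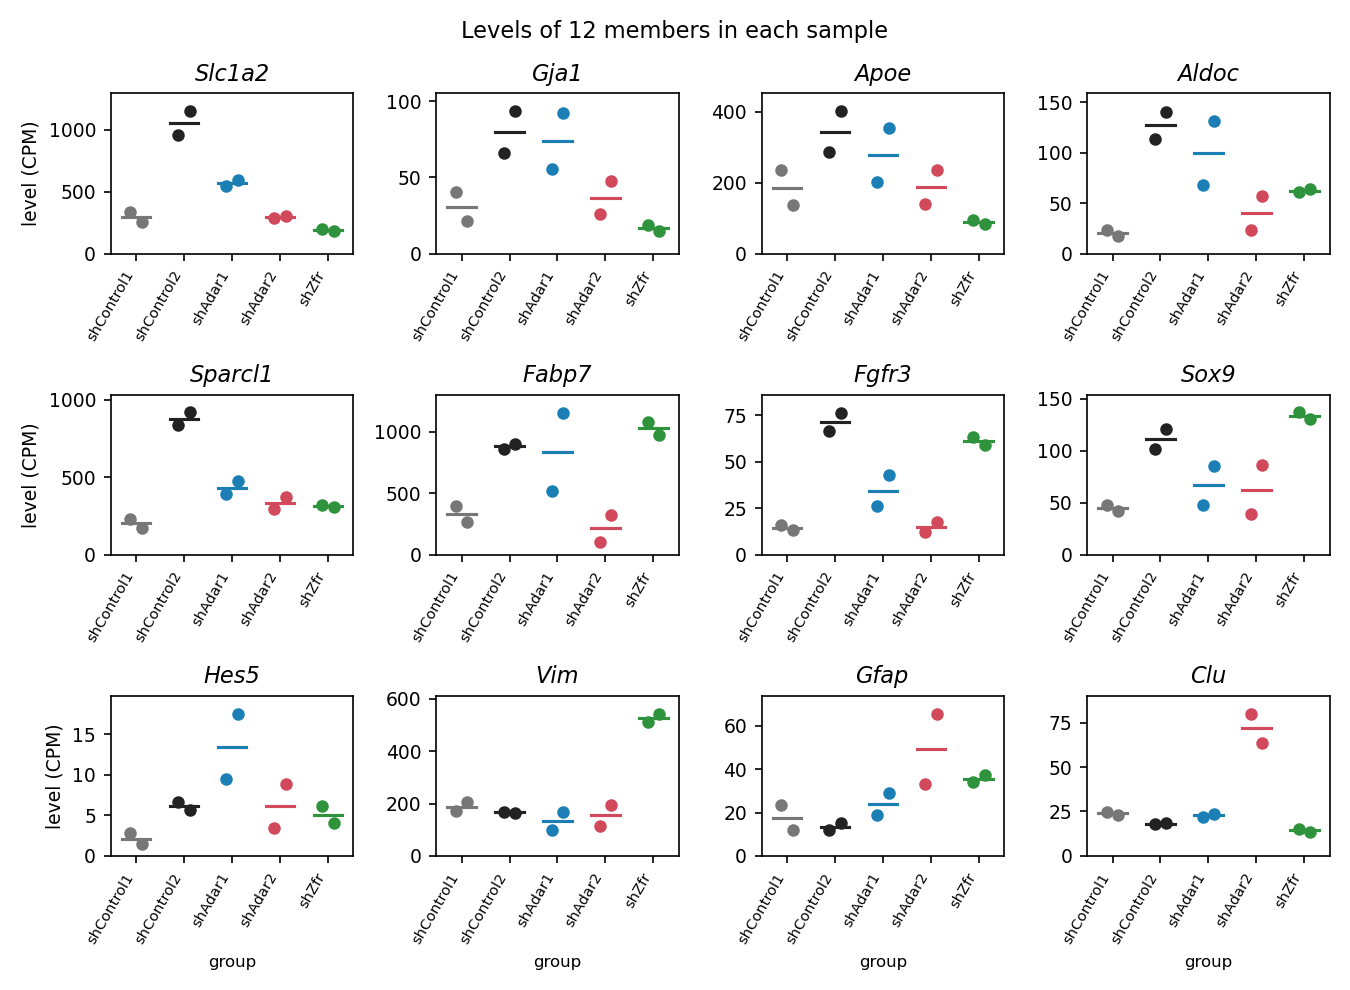
Level in CPM (y axis, linear from 0) of 12 members by group (x axis); each point is 1 sample and the line is the mean of the 2 samples. Slc1a2 is highest in both shControl2 samples and lowest in both shZfr samples, Clu is highest in both shAdar2 samples, and Vim is highest in both shZfr samples.

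In the values that follow, differences are log2 fold changes ± SE with edgeR's adjusted p. Among the 6 transcription regulators, 4 were higher in shControl2 than in shControl1, and 1 was higher in each of the 3 knockdown comparisons. Over all tested genes, 19.9% were higher in shControl2, 9.33% in shAdar1, 23.2% in shAdar2 and 16.7% in shZfr. A count of 1 among 6 genes is not read as a trait of the group. Hes5, the repressor that Notch activates in radial glia, measured 2.84 and 1.42 CPM in shControl1, 6.68 and 5.66 CPM in shControl2, 9.52 and 17.5 CPM in shAdar1, 3.41 and 8.84 CPM in shAdar2 and 6.16 and 4.07 CPM in shZfr. Every shAdar1 sample was above all 4 control samples. Hes5 rose in shAdar1 (log2 fold change 2.68 ± 0.52 SE, adjusted p = 0.00929) and in shAdar2 (1.49 ± 0.51, adjusted p = 0.0382) relative to shControl1. It was likewise higher in shControl2 than in shControl1 (1.54 ± 0.51, adjusted p = 0.0353), and against shControl2 the values were 1.13 ± 0.48, adjusted p = 0.100 for shAdar1 and -0.06 ± 0.49, adjusted p = 0.928 for shAdar2.

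Id4, an inhibitor of proneural bHLH factors, measured 25.7 and 14.9 CPM in shControl1, 36.8 and 44.8 CPM in shControl2, 32.5 and 32.3 CPM in shAdar1, 16.8 and 18.9 CPM in shAdar2 and 66.2 and 65.0 CPM in shZfr. Both shZfr samples were above every other sample. Id4 rose in shZfr by a log2 fold change of 0.68 ± 0.22 against shControl2 (adjusted p = 0.0381) and of 1.70 ± 0.22 against shControl1 (adjusted p = 0.000284). Sox2, which maintains neural progenitors, measured 55.1 and 34.1 CPM in shControl1, 101 and 118 CPM in shControl2, 47.6 and 90.4 CPM in shAdar1, 34.2 and 58.1 CPM in shAdar2 and 125 and 113 CPM in shZfr. Its shZfr and shControl2 samples overlapped, and all 4 lay above every shControl1 and shAdar2 sample. Sox2 was higher in shControl2 than in shControl1 (1.2999 ± 0.34, adjusted p = 0.0119) and its difference between shZfr and shControl2 was 0.12 ± 0.33, adjusted p = 0.819. Sox9, a gliogenic factor, measured 47.5 and 42.3 CPM in shControl1, 102 and 121 CPM in shControl2, 48.1 and 85.0 CPM in shAdar1, 39.2 and 86.2 CPM in shAdar2 and 137 and 130.1 CPM in shZfr. The shZfr samples were the highest, yet the test against shControl2 gave 0.27 ± 0.33, adjusted p = 0.585, whereas shControl2 was higher than shControl1 (1.31 ± 0.34, adjusted p = 0.0124). Hes1 and Id3 were the only 2 tested members called in none of the 4 comparisons, and stayed between 1.71 and 8.81 CPM in all samples.

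Promoters of 26 members were found in the RefSeq table for GRCm38.p6, and the 250 bases upstream of each start were searched on both strands. For 20 of the 26, bases after the start lay in an annotated transcript. The RBPJ core word TGGGAA, or its reverse complement, occurred in 12 of 26 member promoters (46.2%) and in 21.6% of all 32851 promoters in the table. Each member entered with 1 promoter, while the share over all promoters was not limited to 1 per gene, so the units may differ. The word of the STAT motif, TTCNNNGAA, occurred in 7.69% of the member promoters and 7.02% of all, and the TATA word TATAAA in 7.69% and 12.4%. The SOX word ACAAAG occurred in 11.5% and 16.46%, and the word CACGNG of bHLH repressors in 7.69% and 23.5%. TGGGAA ends in the GAA of the STAT word, so 1 stretch of bases can hold both. Members with the RBPJ word differed in what they did: Hes5, Gfap and Aldoc held it, as did Cst3, which was lower in shAdar2, and Id4, which was higher in shZfr. A word in a promoter is a description of its letters. Hes5, Fabp7 and Gfap are printed here because they stand for the Notch target, the radial glia marker and the astrocyte filament, with the word in capitals. The Hes5 window lies at chr4:154960673-154960922 on the plus strand, the Fabp7 window at chr10:57784673-57784922 on the plus strand and the Gfap window at chr11:102897201-102897450 on the minus strand.
Hes5: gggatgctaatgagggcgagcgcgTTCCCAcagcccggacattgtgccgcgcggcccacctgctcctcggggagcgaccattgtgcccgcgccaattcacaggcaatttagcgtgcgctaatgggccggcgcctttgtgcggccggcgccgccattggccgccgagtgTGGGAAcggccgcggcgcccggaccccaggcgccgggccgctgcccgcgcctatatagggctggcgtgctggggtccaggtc
Fabp7: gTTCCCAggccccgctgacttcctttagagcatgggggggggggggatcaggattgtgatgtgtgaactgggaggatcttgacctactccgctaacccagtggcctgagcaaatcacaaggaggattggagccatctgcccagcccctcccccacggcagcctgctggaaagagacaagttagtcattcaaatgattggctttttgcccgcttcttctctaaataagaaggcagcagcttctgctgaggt
Gfap: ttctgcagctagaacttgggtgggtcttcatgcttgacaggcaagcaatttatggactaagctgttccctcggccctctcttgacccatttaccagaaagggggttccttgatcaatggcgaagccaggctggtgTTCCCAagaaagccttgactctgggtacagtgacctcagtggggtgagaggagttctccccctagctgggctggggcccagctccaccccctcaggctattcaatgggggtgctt
The Hes5 window held the word at 2 places, first bases at -226 and -82 from the start. The Fabp7 window held it at -249 and the Gfap window at -115.

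Among the 4 receptors, 3 were higher in shControl2 than in shControl1, where 19.9% of all tested genes were higher. Fgfr3, a receptor for fibroblast growth factors on radial glia and astrocytes, measured 15.8 and 13.3 CPM in shControl1, 66.6 and 76.4 CPM in shControl2, 26.1 and 42.9 CPM in shAdar1, 12.5 and 17.3 CPM in shAdar2 and 63.4 and 59.1 CPM in shZfr. The shZfr samples lay near those of shControl2, and the shAdar1 samples lay between the controls without overlapping either. Fgfr3 was higher than in shControl1 in shControl2 (2.29 ± 0.24, adjusted p = 0.000126) and in shAdar1 (1.25 ± 0.24, adjusted p = 0.00852), and the difference in shAdar2 was 0.02 ± 0.24, adjusted p = 0.958. Ptprz1, a receptor phosphatase of radial glia, measured 924 and 800.3 CPM in shControl1, 1938 and 2316 CPM in shControl2, 986 and 1539 CPM in shAdar1, 512 and 908 CPM in shAdar2 and 1443 and 1368 CPM in shZfr. It was higher in shControl2 than in shControl1 (1.303 ± 0.27, adjusted p = 0.00411), and its difference between shZfr and shControl2 was -0.60 ± 0.27, adjusted p = 0.121.

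Ednrb, the endothelin B receptor of astrocytes, measured 67.4 and 60.5 CPM in shControl1, 195 and 286 CPM in shControl2, 78.8 and 201 CPM in shAdar1, 52.5 and 94.6 CPM in shAdar2 and 261 and 250.5 CPM in shZfr. The shAdar1 replicates were far apart, with replicate 2 inside the shControl2 range. Ednrb was higher in shControl2 than in shControl1 (1.91 ± 0.40, adjusted p = 0.00438), while its difference in shAdar1 was 1.13 ± 0.40, adjusted p = 0.0827. Ntsr2, a neurotensin receptor of astrocytes, was low throughout, at 1.54 and 1.26 CPM in shControl1, 2.34 and 2.65 CPM in shControl2, 2.41 and 1.33 CPM in shAdar1, 1.66 and 0.164 CPM in shAdar2 and 0.115 and 0.201 CPM in shZfr. The shZfr samples were lower than every control sample. Ntsr2 fell in shZfr against shControl2 (-3.92 ± 0.92, adjusted p = 0.0111) and against shControl1 (-3.09 ± 0.94, adjusted p = 0.0228). The shZfr samples held 2 and 4 expected counts, against 49 and 58 in shControl2, so the size of these folds rests on counts near the floor of 3.

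Of the 9 glutamate, ion, water and gap junction genes, among which the enzyme Glul was counted, 8 were tested. In shControl2 against shControl1, 7 were higher, with a median log2 fold change of 1.49, and in shZfr against shControl2, 7 were lower, with a median of -1.74. Over all tested genes, 19.9% were higher in the former comparison and 14.1% lower in the latter. Slc1a2, the main glutamate transporter of mature astrocytes, measured 335 and 252 CPM in shControl1, 959 and 1149 CPM in shControl2, 545 and 595 CPM in shAdar1, 291 and 300.4 CPM in shAdar2 and 197 and 184 CPM in shZfr. The shControl2, shAdar1 and shZfr samples each formed a range apart from all others, while shAdar2 lay inside the shControl1 range. Slc1a2 rose in shAdar1 (0.96 ± 0.15, adjusted p = 0.00355) relative to shControl1 and fell in shZfr relative to shControl2 (-2.47 ± 0.15, adjusted p = 2.95e-05). It also fell in shZfr against shControl1 (-0.63 ± 0.15, adjusted p = 0.00671), and shControl2 exceeded shControl1 (1.84 ± 0.15, adjusted p = 4.42e-05).

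Gja1, the principal connexin of astrocytes, measured 40.2 and 21.5 CPM in shControl1, 65.8 and 93.5 CPM in shControl2, 55.3 and 92.7 CPM in shAdar1, 25.9 and 47.8 CPM in shAdar2 and 18.5 and 14.8 CPM in shZfr. The shZfr samples were the lowest and both shAdar1 samples exceeded both shControl1 samples. Gja1 fell in shZfr (-2.26 ± 0.40, adjusted p = 0.00264) and rose in shAdar1 (1.27 ± 0.38, adjusted p = 0.0484), and against shControl1 its difference in shZfr was -0.89 ± 0.39, adjusted p = 0.0866. Slc4a4, a sodium bicarbonate cotransporter, measured 99.7 and 72.6 CPM in shControl1, 251 and 272 CPM in shControl2, 103 and 196 CPM in shAdar1, 64.0 and 169 CPM in shAdar2 and 58.6 and 57.1 CPM in shZfr. Its shZfr samples were the lowest, and those of shControl2 were the highest. Slc4a4 fell in shZfr (-2.18 ± 0.42, adjusted p = 0.00446), and the differences against shControl1 were 1.60 ± 0.41, adjusted p = 0.0115 for shControl2 and -0.57 ± 0.41, adjusted p = 0.277 for shZfr.

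Ttyh1, a membrane protein of the tweety family, measured 85.4 and 67.0 CPM in shControl1, 202 and 299.5 CPM in shControl2, 128 and 178 CPM in shAdar1, 143 and 145 CPM in shAdar2 and 222 and 215 CPM in shZfr. The shControl1 samples were below all others. Ttyh1 was higher than in shControl1 in shAdar1 (1.01 ± 0.21, adjusted p = 0.0119), shAdar2 (0.92 ± 0.21, adjusted p = 0.00556) and shControl2 (1.72 ± 0.21, adjusted p = 0.000244), and its difference between shZfr and shControl2 was -0.20 ± 0.20, adjusted p = 0.49998. In shZfr against shControl2, the water channel Aqp4 (-1.98 ± 0.46, adjusted p = 0.0103), the end-foot membrane protein Mlc1 (-1.51 ± 0.38, adjusted p = 0.0149), the glutamate transporter Slc1a3 (-1.04 ± 0.32, adjusted p = 0.0360) and glutamine synthetase Glul (-0.92 ± 0.26, adjusted p = 0.0249) fell as well. Against shControl1 none of them was called in shZfr. The differences there were -0.29 ± 0.45, adjusted p = 0.627 for Aqp4 and -0.77 ± 0.38, adjusted p = 0.124 for Mlc1. For Slc1a3 the difference was 0.0024 ± 0.32, adjusted p = 0.997, and for Glul it was 0.39 ± 0.26, adjusted p = 0.249. In shAdar1, Glul was higher (1.22 ± 0.26, adjusted p = 0.0146) and Slc1a3 was not called (0.43 ± 0.32, adjusted p = 0.393).

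All 3 genes of the group of metabolism and fatty acid binding were higher in shControl2 than in shControl1, and 2 of 3 were higher in shAdar1. Over all tested genes, 19.9% were higher in shControl2 and 9.33% in shAdar1. Glul was counted with the glutamate genes and not here. Aldoc, the brain aldolase, measured 23.5 and 17.0 CPM in shControl1, 113 and 141 CPM in shControl2, 67.5 and 131 CPM in shAdar1, 23.4 and 57.4 CPM in shAdar2 and 60.5 and 64.0 CPM in shZfr. All shAdar1 and shZfr samples exceeded shControl1, and shAdar2 replicate 1 lay inside the shControl1 range. Aldoc rose in shAdar1 (2.29 ± 0.42, adjusted p = 0.00717), and shControl2 exceeded shControl1 (2.65 ± 0.42, adjusted p = 0.000985). Its differences against the assigned controls did not pass in shAdar2 (0.98 ± 0.41, adjusted p = 0.0747) or in shZfr (-1.03 ± 0.40, adjusted p = 0.0783). Aldh1l1, a folate enzyme used to mark astrocytes, measured 29.6 and 20.03 CPM in shControl1, 68.0 and 63.6 CPM in shControl2, 54.1 and 91.3 CPM in shAdar1, 24.3 and 56.1 CPM in shAdar2 and 50.3 and 50.3 CPM in shZfr. The shAdar1 samples again exceeded both shControl1 samples, with a rise in shAdar1 (1.56 ± 0.37, adjusted p = 0.0209) and a difference of -0.39 ± 0.36, adjusted p = 0.447 in shZfr. Fabp7 measured 394 and 268 CPM in shControl1, 861 and 902 CPM in shControl2, 523 and 1154 CPM in shAdar1, 105 and 324 CPM in shAdar2 and 1079.7 and 978 CPM in shZfr. The shAdar1 replicates spanned the range from below shControl2 to above it, and the shAdar2 replicates lay on either side of shControl1 replicate 2. Fabp7 was higher in shControl2 than in shControl1 (1.41 ± 0.48, adjusted p = 0.0380), with 1.34 ± 0.48, adjusted p = 0.0873 in shAdar1, -0.63 ± 0.47, adjusted p = 0.298 in shAdar2 and 0.22 ± 0.47, adjusted p = 0.755 in shZfr.

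Of the 4 secreted proteins, 3 were lower in shZfr, and in shAdar2 2 were higher and 1 lower. Over all tested genes, 14.1% were lower in shZfr, and 23.2% were called in each direction in shAdar2. Clu, a secreted chaperone and lipoprotein, measured 24.9 and 22.96 CPM in shControl1, 18.0 and 18.4 CPM in shControl2, 22.2 and 23.4 CPM in shAdar1, 80.0 and 63.6 CPM in shAdar2 and 15.1 and 13.7 CPM in shZfr. Both shAdar2 samples were above every other sample, and the shZfr samples were the lowest. Clu rose in shAdar2 against shControl1 (1.59 ± 0.14, adjusted p = 4.82e-05) and against shControl2 (1.98 ± 0.14, adjusted p = 8.52e-06). It was lower in shControl2 than in shControl1 (-0.40 ± 0.14, adjusted p = 0.0434), a call that was lost with another scaling. Cst3 measured 98.6 and 74.4 CPM in shControl1, 69.8 and 73.0 CPM in shControl2, 107 and 140.5 CPM in shAdar1, 62.3 and 56.3 CPM in shAdar2 and 37.5 and 35.6 CPM in shZfr. The shZfr samples were below all others, and the shAdar1 samples were the highest. Cst3 fell in shZfr against shControl2 (-0.97 ± 0.16, adjusted p = 0.00229) and shControl1 (-1.24 ± 0.16, adjusted p = 0.000299), and fell in shAdar2 against shControl1 (-0.54 ± 0.16, adjusted p = 0.0206).

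Apoe measured 235 and 135 CPM in shControl1, 286 and 402 CPM in shControl2, 203 and 355 CPM in shAdar1, 139 and 236 CPM in shAdar2 and 94.1 and 83.0 CPM in shZfr. The shZfr samples were the lowest of all groups. Apoe fell in shZfr against shControl2 (-1.96 ± 0.36, adjusted p = 0.00323) and against shControl1 (-1.06 ± 0.35, adjusted p = 0.0313), and the difference in shAdar1 was 0.59 ± 0.34, adjusted p = 0.272. Sparcl1, a matrix protein that astrocytes secrete, measured 230.5 and 174 CPM in shControl1, 837 and 917 CPM in shControl2, 389 and 473 CPM in shAdar1, 292 and 374 CPM in shAdar2 and 318 and 305 CPM in shZfr. The shControl1 samples were the lowest and the shControl2 samples the highest, with the 3 knockdowns between. Sparcl1 was therefore called in opposite directions with the control: in shZfr it was -1.50 ± 0.17, adjusted p = 0.000293 against shControl2 and 0.62 ± 0.17, adjusted p = 0.0129 against shControl1. In shAdar1 it was 1.09 ± 0.17, adjusted p = 0.00355 against shControl1 and -1.02 ± 0.17, adjusted p = 0.00193 against shControl2.

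All 5 genes of the group of filaments and cytoskeleton, in which the calcium-binding S100b was counted, were called in shZfr against shControl2. Of these, 3 were higher and 2 lower, where 16.7% of all tested genes were higher and 14.1% lower. Vim, the intermediate filament of radial glia and immature astrocytes, measured 169.8 and 204 CPM in shControl1, 168 and 166 CPM in shControl2, 98.2 and 168 CPM in shAdar1, 116 and 195 CPM in shAdar2 and 509.9 and 543 CPM in shZfr. The shZfr samples stood alone at the top, with all other samples between 98.2 and 204 CPM. Vim rose in shZfr against shControl2 (1.66 ± 0.27, adjusted p = 0.00196) and shControl1 (1.49 ± 0.27, adjusted p = 0.00175). Nes, the intermediate filament of neural progenitors, rose likewise (1.64 ± 0.52, adjusted p = 0.0388 and, against shControl1, 2.30 ± 0.53, adjusted p = 0.00619). Gfap, the astrocyte filament, measured 23.5 and 12.0 CPM in shControl1, 11.8 and 15.1 CPM in shControl2, 18.8 and 29.2 CPM in shAdar1, 33.4 and 65.6 CPM in shAdar2 and 33.9 and 37.1 CPM in shZfr. Both shAdar2 samples exceeded all 4 control samples, as did both shZfr samples. Gfap rose in shAdar2 against shControl1 (1.47 ± 0.38, adjusted p = 0.0105) and shControl2 (1.87 ± 0.38, adjusted p = 0.00231). In shZfr it rose against shControl2 (1.402 ± 0.38, adjusted p = 0.0213), with 1.00 ± 0.38, adjusted p = 0.0519 against shControl1.

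S100b, a calcium-binding protein of mature astrocytes, measured 2.38 and 1.06 CPM in shControl1, 8.83 and 10.3 CPM in shControl2, 0.638 and 1.77 CPM in shAdar1, 0.128 and 0.982 CPM in shAdar2 and 0.863 and 0.754 CPM in shZfr. The shControl2 samples were the highest and the shAdar2 and shZfr samples stayed under 1 CPM. S100b fell in shZfr against shControl2 (-3.56 ± 0.79, adjusted p = 0.00849), with -1.08 ± 0.80, adjusted p = 0.296 against shControl1. It was higher in shControl2 than in shControl1 (2.48 ± 0.72, adjusted p = 0.0196). Fam107a, an actin-associated protein found in outer radial glia and astrocytes, measured 1.92 and 0.676 CPM in shControl1, 8.02 and 12.1 CPM in shControl2, 5.65 and 3.32 CPM in shAdar1, 2.17 and 1.53 CPM in shAdar2 and 0.806 and 0.804 CPM in shZfr. The shZfr samples were under 1 CPM, as was shControl1 replicate 2. Fam107a fell in shZfr against shControl2 (-3.64 ± 0.52, adjusted p = 0.000937), with -0.67 ± 0.54, adjusted p = 0.339 against shControl1. Relative to shControl1 it rose in shAdar1 (1.80 ± 0.47, adjusted p = 0.0325), while shControl2 exceeded shControl1 (2.97 ± 0.48, adjusted p = 0.00110).

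Most of the 30 tested members rose and fell together over the samples. The Pearson correlation of a member's log2 CPM with the mean of the others, over the 10 samples, was above 0.4 for 24 members, with the highest, 0.96, for Aldoc. It was 0.13 for Cst3, 0.17 for Ntsr2 and 0.22 for Nes, and below 0 for Clu (-0.45), Gfap (-0.19) and Vim (-0.03). The points share the 10 libraries and their depth, so these values describe the pattern. By group mean, 15 members were highest in shControl2, 8 in shZfr, 5 in shAdar1, 2 in shAdar2 and 0 in shControl1. The lowest group was shControl1 for 11 members and shZfr for 11 others.

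Another 32 genes of astrocytes and radial glia, all tested, were counted beside the members. Over all tested genes, 19.9% were higher and 23.2% lower in shControl2, and 9.33% and 6.90% in shAdar1. The shares were 23.2% in each direction in shAdar2, and 16.7% higher and 14.1% lower in shZfr. In shControl2, 16 were higher than in shControl1 and 0 lower, with a median of 1.19. In shAdar1, 11 were higher and 0 lower (median 1.22), among them Ppp1r3c, a glycogen-targeting phosphatase subunit (1.25 ± 0.21, adjusted p = 0.00546), and Dio2, the deiodinase that activates thyroid hormone (1.88 ± 0.39, adjusted p = 0.0124). In shAdar2, 8 were higher and 2 lower (median 0.25), with the gliogenic factor Nfia lower (-1.82 ± 0.24, adjusted p = 0.000321) and the metallothionein Mt3 higher (1.44 ± 0.37, adjusted p = 0.0109). In shZfr against shControl2, 1 was higher and 12 lower (median -0.93): Ppp1r3c (-2.28 ± 0.22, adjusted p = 0.000147), Tril (-2.49 ± 0.51, adjusted p = 0.00573), the GABA transporter Slc6a11 (-1.26 ± 0.26, adjusted p = 0.00636) and Mfge8 (-1.61 ± 0.34, adjusted p = 0.00647) fell. The gene that rose was Tnc, a matrix protein of radial glia (1.36 ± 0.32, adjusted p = 0.0108), named after its value was seen. These counts also changed with the control. Against shControl2, shAdar1 had 2 higher and 1 lower (median -0.26), and shAdar2 had 3 higher and 14 lower (median -0.98). Against shControl1, shZfr had 7 higher and 1 lower (median 0.007). Over all tested genes the shares higher and lower were 19.3% and 13.9%, 32.2% and 27.3%, and 22.8% and 23.4% in the same order.

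Of 25 tested Notch pathway genes, 4 were higher and 0 lower in shAdar1, and 9 higher and 3 lower in shAdar2. In shZfr, 5 were higher and 2 lower, and in shControl2, 7 were higher and 2 lower. Among all tested genes, 9.33% were higher and 6.90% lower in shAdar1, and 23.2% in each direction in shAdar2. The shares were 16.7% and 14.1% in shZfr, and 19.9% and 23.2% in shControl2. In shAdar1 the 4 higher genes were the fringe enzymes Lfng (1.83 ± 0.28, adjusted p = 0.00355) and Mfng (1.95 ± 0.53, adjusted p = 0.0350) and the receptors Notch1 (1.397 ± 0.35, adjusted p = 0.0259) and Notch2 (0.99 ± 0.23, adjusted p = 0.0184). Lfng (1.79 ± 0.28, adjusted p = 0.000934) and Notch1 (1.73 ± 0.35, adjusted p = 0.00348) were higher in shControl2 as well. Rbpj itself fell in shAdar2 (-0.85 ± 0.11, adjusted p = 0.000292) and rose in shZfr (0.58 ± 0.11, adjusted p = 0.00335).

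Of 21 tested BMP and JAK-STAT genes, 3 were higher and 0 lower in shAdar1, and 7 higher and 5 lower in shAdar2. In shZfr, 4 were higher and 5 lower, and in shControl2, 8 were higher and 3 lower. Beside these counts, 9.33% of all tested genes were higher and 6.90% lower in shAdar1, and 23.2% in each direction in shAdar2. The shares were 16.7% and 14.1% in shZfr, and 19.9% and 23.2% in shControl2. Id2, a target of BMP signals, was higher in shAdar1 (1.70 ± 0.18, adjusted p = 0.000874), shAdar2 (1.36 ± 0.18, adjusted p = 0.000381) and shControl2 (1.22 ± 0.18, adjusted p = 0.000685). The BMP receptor Bmpr2 fell in shAdar2 (-1.90 ± 0.15, adjusted p = 3.26e-05). In shZfr the kinase Jak1 (-1.08 ± 0.09, adjusted p = 6.37e-05) and the shared cytokine receptor subunit Il6st (-0.79 ± 0.12, adjusted p = 0.00154) fell, while the LIF receptor Lifr rose (0.82 ± 0.12, adjusted p = 0.000844).

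A list of 32 genes of reactive astrocytes, of which 26 were tested, was counted beside Gfap. In shAdar2, 9 were higher and 4 lower, with a median of 0.81. The lowest p belonged to Gbp2 (4.51 ± 0.40, adjusted p = 4.95e-05) and Cxcl10 (4.47 ± 0.40, adjusted p = 5.22e-05), which are also known as interferon-stimulated genes, as is the class I gene H2-D1 (1.74 ± 0.23, adjusted p = 0.000345), whose reads can be shared with near-identical copies. In shAdar1, 0 were higher and 6 lower (median -0.87), including S100a10 (-1.25 ± 0.17, adjusted p = 0.00231) and Ggta1 (-1.31 ± 0.21, adjusted p = 0.00386). In shZfr, 5 were higher and 3 lower, and in shControl2, 2 were higher and 7 lower. Of all tested genes, 23.2% were called in each direction in shAdar2, and 9.33% higher and 6.90% lower in shAdar1. The shares were 16.7% and 14.1% in shZfr, and 19.9% and 23.2% in shControl2.

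Markers of other cell types moved beside the members. The summed level of the 31 members was 3765 and 2904 CPM in shControl1, 7805 and 9124 in shControl2, 4395 and 7086 in shAdar1, 2485 and 4232 in shAdar2, and 5949 and 5659 in shZfr. The 12 oligodendrocyte lineage markers summed to 133 and 87.1 CPM, 481 and 483, 155 and 436, 104 and 383, and 337 and 290.04 in the same order, with Mog, Mag and Enpp6 under 1 CPM in every sample. The 13 markers of proliferating cells summed to 236 and 206 CPM, 519.6 and 539.7, 285 and 670.4, 79.9 and 152, and 845 and 783, none of them at 0 or under 1 CPM in all samples. Both lists were higher in shControl2 than in shControl1, and higher in replicate 2 of shAdar1 and shAdar2 than in replicate 1.

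**Figure D4:**
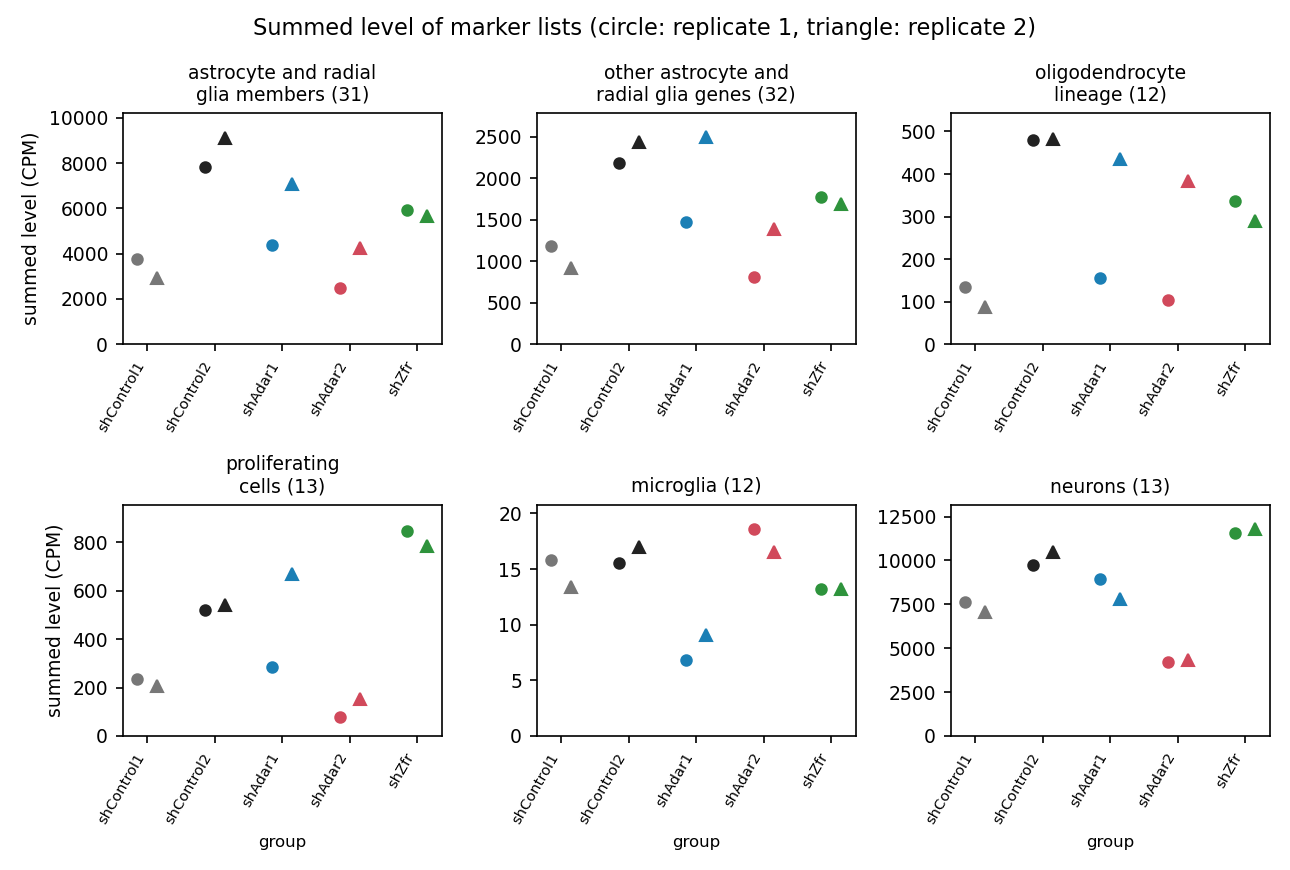
Summed CPM of the members and of 5 other marker lists (y axis, linear from 0) by group (x axis); each symbol is 1 sample, a circle for replicate 1 and a triangle for replicate 2. The members, the oligodendrocyte markers and the proliferation markers are each lower in replicate 1 than in replicate 2 of shAdar1 and shAdar2, while neuronal markers change less between those replicates.

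By test, 6 of 9 tested oligodendrocyte markers and 7 of 13 proliferation markers were higher in shControl2 than in shControl1, with 0 lower. Over all tested genes, 19.9% were higher and 23.2% lower in that comparison. In shAdar1, 0 of 9 oligodendrocyte markers passed, although all 9 had a positive log2 fold change, with a median of 1.60. Of the proliferation markers, 4 of 13 were higher, where 9.33% of all tested genes were higher and 6.90% lower. In shAdar2, 2 of 9 oligodendrocyte markers were higher (median 1.17) and 4 of 13 proliferation markers were lower, where 23.2% of all tested genes went in each direction. In shZfr against shControl2, 2 oligodendrocyte markers were lower and 1 proliferation marker was higher, where 14.1% of all tested genes were lower and 16.7% higher. Against shControl1, 12 of 13 proliferation markers were higher in shZfr, where 22.8% of all tested genes were higher. The 13 neuronal markers, all above 1 CPM in at least 1 sample, summed to between 4206.5 CPM in shAdar2 replicate 1 and 11816 CPM in shZfr replicate 2. Of these, 6 were lower and 3 higher in shAdar2, and 6 were higher and 1 lower in shControl2. The 12 microglial markers summed to 6.83 to 18.6 CPM, with 8 under 1 CPM in every sample, among them Cx3cr1, P2ry12 and Tmem119. The 14 endothelial, mural and fibroblast markers summed to 10.4 to 35.5 CPM, and Cldn5 and Cdh5 stayed under 1 CPM. The 6 markers of intermediate progenitors summed to 32.2 to 89.6 CPM. The part of these cell types in the members' differences was not tested.

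The members also varied together between replicates of a group. In shAdar1, 27 of 30 members were lower in replicate 1 than in replicate 2, with a median log2 difference of -0.77, and all 13 proliferation markers were lower (median -1.21). In shAdar2, 25 of 30 were lower in replicate 1 (median -0.83), and all 9 oligodendrocyte markers were lower (median -1.73). In shControl1 the direction was the other, with 27 of 30 higher in replicate 1 (median 0.43). In shControl2, 25 of 30 were lower in replicate 1, with a smaller median of -0.21. The shZfr replicates differed by a median of 0.07. Over all tested genes the median difference was -0.005 in shAdar1, -0.016 in shAdar2, 0.010 in shControl1, 0.008 in shControl2 and 0.001 in shZfr. The share of all tested genes lower in replicate 1 was not computed. Within shAdar2 replicate 1, the 31 members summed to 2181, 3386 and 2175 CPM in the 3 technical libraries, against 4284 CPM in replicate 2 when each library was scaled on its own. Aldoc, for instance, had 13.01, 40.8 and 20.3 CPM in those libraries.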

How the data were processed

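RNA from 12 libraries of mouse cortical neuron cultures was used, in 5 groups of 2 samples; the 3 technical libraries of shAdar2 replicate 1 were summed. The authors deposited expected counts (RSEM estimates of reads per gene, not normalised) and TPM per gene, per the file headers. The submitters' processing notes list the mm9 build and, without saying what each was used for, RSEM 1.2.30, STAR 2.5.4b, DESeq2 1.20.0, Trim Galore 0.4.5 and SAMtools 1.4. Strand handling and the gene annotation are not given in the sources used here. The deposited editing tables were not used here.

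Expected counts were rounded to whole numbers, filtered with filterByExpr (14785 genes left) and scaled with TMM. edgeR 4.0.16 (limma 3.58.1, R 4.3.3) fitted all 10 samples together, and each comparison is a quasi-likelihood F test from that fit. P-values were adjusted by Benjamini-Hochberg over all genes tested, and a gene was called under 0.05. The standard error is the absolute log2 fold change divided by the square root of F. The deposited TPM, which correct for length, were used to order genes, and the TPM of shAdar2 replicate 1 are the mean of its 3 libraries. Levels for the heat map had 1 CPM added before the log2, and ratios of replicates had 0.5 CPM added. Totals per library were 1.58e+07 to 2.97e+07, and the reads carry no molecular identifiers in the deposited tables, so the floor of 3 counts covers counting error only. The pipeline was tested on simulated data.

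The members, the role groups and the other lists were chosen with earlier results of these data known. Values in every sample are given for members called in at least 1 of 4 comparisons, at most 4 per role group with the lowest p, and at most 4 genes of another list. Alternatives were DESeq2 1.42.0, its size factors, no filter, a replicate block, fits on the compared groups only, each technical library alone, the other control and each sample left out. The sum of the shZfr samples and the sum without technical library 2 were added after seeing the data. Promoter sequences are from RefSeq (GRCm38.p6).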

Additional observations from a re-analysis of the deposited data

How the results depend on the processing

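Each count of members called in a comparison was recomputed under the alternatives. Against the other control hairpin the numbers higher and lower were 1 and 5 for shAdar1, 2 and 17 for shAdar2, and 12 and 5 for shZfr. The median over the members reversed with it, to -0.39, -1.19 and 0.66. Called members that changed sign against shControl2 were, for shAdar1, Aldoc (-0.35), Fam107a (-1.17), Fgfr3 (-1.05), Gja1 (-0.10), Glul (-0.089), Slc1a2 (-0.89), Sparcl1 (-1.02) and Ttyh1 (-0.71), and, for shAdar2, Hes5 (-0.057), Sparcl1 (-1.40) and Ttyh1 (-0.80). For shZfr against shControl1 they were Glul (0.39), Slc1a3 (0.0024) and Sparcl1 (0.62).

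With each sample left out in turn, the number higher ranged from 2 to 12 in shAdar1 (0 lower), from 1 to 10 in shAdar2 (0 to 7 lower), from 10 to 19 in shControl2 (0 lower) and was 1 in shZfr (7 to 10 lower). The shAdar2 median ranged from -0.21 without shAdar2 replicate 2 to 0.36 without shAdar2 replicate 1, and was -0.07 without shControl1 replicate 2. The 1 lower member of shControl2, Clu, was not called with DESeq2's size factors, without the filter or with DESeq2 (0 lower each). The number lower in shAdar2 was 3 without the filter, 2 with DESeq2, and 0 with the compared groups only or with technical library 2 alone, while technical library 1 alone gave 3 higher. With the shZfr samples summed to 1, the counts in shZfr were 1 higher and 7 lower. Fits on the compared groups alone hold no shZfr sample in the comparisons of shAdar1, shAdar2 and shControl2 with shControl1. They called 8, 4 and 26 members there, against 10, 6 and 21 in the main fit. The cause of these shifts was not tested.

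Replicate numbers showed no pairing of samples in the 4 pairs of groups that were checked. Between same-numbered samples the correlation of deviations was -0.15 for shAdar1 and -0.18 for shAdar2 with shControl1. It was 0.09 for shZfr with shControl2 and -0.08 between the controls. Other pairs of groups were not checked. With the replicate block the counts were 9 higher in shAdar1, 4 higher and 2 lower in shAdar2, 4 and 13 in shZfr, and 20 and 1 in shControl2. With 2 samples per group, single members near the threshold are the least secure.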

Other observations

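Tested genes outside the list whose log2 CPM was most like the members' mean over the 10 samples included Ppap2b (Pearson r 0.98), Mmd2 (0.98), Gng12 (0.97), Pi15 (0.97), Tmem229a (0.97), Tmem100 (0.96) and S1pr1 (0.96), a sphingosine phosphate receptor that stands in the list of other astrocyte genes. The points share their libraries, and the genes were picked for high values among all tested genes, so r is a description.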
